A study of Homo sapiens with 6 samples.

Results

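Heat shock proteins of the cytosol and the mitochondria were followed through 10 genes: HSPA1A, HSPA1B, HSPA8, HSPH1, DNAJB1, HSP90AA1, HSPB1, HSPD1, HSPE1 and BAG3. They were taken by gene symbol and were 10 of the 17687 genes measured. All 10 passed the filter on low counts and were among the 14005 genes tested. RNA sequencing was performed on KHM-5M cells, an established line derived from an anaplastic thyroid cancer, in 3 groups of 2 libraries. The control group received PBS, the SS group received sodium selenite, and the SS+NAC group received sodium selenite together with NAC (N-acetylcysteine, a cysteine precursor used as an antioxidant). All groups were the same cell line, grown with fetal bovine serum, and the dose of selenite and the duration of the treatments in these libraries were not given in the sources used here. The libraries held between 17645545 and 23810056 expected counts, and the replicates of each group differed by more than sampling noise, with a chi-square per degree of freedom of 3.16 in control, 7.45 in SS and 12.3 in SS+NAC.

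Heat shock proteins are chaperones that bind unfolded or partly folded proteins and help them fold, refold or reach degradation. HSP70 proteins (HSPA1A, HSPA1B, HSPA8) work in cycles of ATP hydrolysis in which J-domain proteins (DNAJB1) deliver the substrate and nucleotide exchange factors (HSPH1, BAG3) release it, HSP90 (HSP90AA1) matures kinases and receptors, small heat shock proteins (HSPB1) hold unfolded proteins without ATP, and HSPD1 with its lid HSPE1 folds proteins inside mitochondria. Many of these genes are induced together by the transcription factor HSF1, which binds heat shock elements, that is, inverted repeats of a short unit, when proteins misfold under heat, heavy metals or thiol-reactive agents.

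The labelled cell type was checked against marker genes by level per length (FPKM). Among thyroid follicular cell markers, PAX8 was present at 61.6 to 68.6 FPKM and HHEX at 13.8 to 17.1 FPKM over the 6 libraries, whereas TG, SLC5A5, NKX2-1 and FOXE1 lay at 0.8 FPKM or less. TSHR had no entry among the genes measured. Of 6 mesenchymal markers VIM was highest at 2887 to 3922 FPKM, FN1, SPARC and COL1A1 lay at 99.2 FPKM or more and CDH2 at 18.3 to 27.0 FPKM, and COL1A2 was at 0.02 FPKM or less. Of 6 epithelial markers KRT8 at 491 to 828 FPKM and KRT18 at 368 to 651 FPKM were high and KRT7 lay at 23.7 to 40.3 FPKM, while EPCAM reached no more than 3.11, KRT19 1.17 and CDH1 0.15 FPKM. The line thus held PAX8 and HHEX, while TG, SLC5A5, NKX2-1 and FOXE1 were near 0 in all 3 groups.

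SS was compared with control to ask what selenite changed. The inducible HSP70 genes HSPA1A and HSPA1B rose 1.49-fold and 1.62-fold, and the small heat shock protein gene HSPB1 and the mitochondrial co-chaperonin gene HSPE1 rose 1.56-fold and 1.32-fold. HSPH1 and HSP90AA1 fell by 28.3% and 16.4%. HSPA8, DNAJB1, BAG3 and HSPD1 were not called. A gene was called when its adjusted p was at most 0.05 in the quasi-likelihood test of edgeR, adjusted after Benjamini and Hochberg over all tested genes. Thus 6 of the 10 members were called, 4 higher and 2 lower, where 40.0% of all tested genes were called, 18.6% higher and 21.4% lower. The background was large and 10 genes are few, so the count itself was not read as a property of the heat shock genes. The count over all genes moved with single libraries, from 5609 to 3118 without control 1, 3628 without control 2 and 3164 without SS 2.

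SS was then compared with SS+NAC to ask what differed when NAC was given along with selenite. HSPB1, HSPE1, HSPA8 and DNAJB1 were higher in SS, by 1.67-fold, 1.43-fold, 1.28-fold and 1.22-fold, and HSPH1 was lower by a log2 fold change of -0.37. The inducible pair HSPA1A and HSPA1B was not called in this comparison. In all, 5 of the 10 members were called, where 42.7% of tested genes were called, 19.6% higher and 23.1% lower. Without SS 2 the count over all genes went from 5985 to 3250.

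In SS+NAC against control, the comparison of both agents together with neither, HSPA1B was called, 1.68-fold higher, and the other 9 members were not. The background was low here, 2.01% of tested genes, 1.36% higher and 0.657% lower. The 282 genes called became 98 without control 1, 99 without control 2 and 1086 without SS+NAC 1, and HSPA1B was called in each of these settings. Under Bonferroni adjustment, the rule named in the study's methods, HSPA1B kept this call, while 0 members were called in either comparison with SS, where edgeR had 6 and 5 at an unadjusted p under 0.05 and DESeq2 called 6 and 5 (4622 and 4866 of all genes). The 3 comparisons share libraries, so their values are given side by side and are not independent. Nothing in these bulk libraries tells fewer cells with a transcript apart from less of it per cell. The p-values of the main fit rest on a spread between biological replicates that was estimated over all 3 groups together. The group left out of a comparison thus enters its p-values as well.

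**Figure D1:**
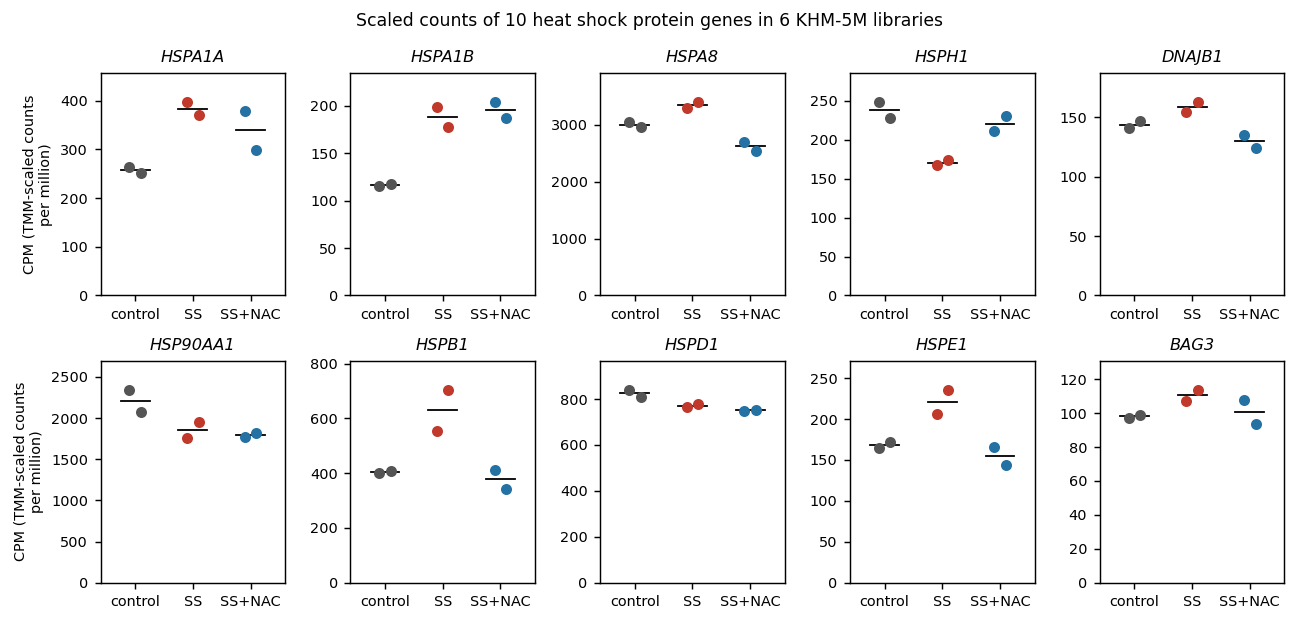
Scaled counts (CPM, linear axis from 0) of the 10 genes, 1 panel a gene, with 1 point a library and a line at the mean of each group of 2. HSPA1B lies at 115 and 118 CPM in control and between 178 and 204 CPM in the 4 libraries given selenite, with or without NAC, while HSPB1 is high in SS alone, at 555 and 706 CPM.

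Fold changes of SS against either other group depended on transcript length across the whole table, and this bears on several members. Length was taken as the length implied by the ratio of counts to FPKM, and the tested genes were split into eighths by it. In SS against control the median log2 fold change was 0.46 in the shortest eighth (183 to 1409 bases), where 69.4% of genes were called higher, and -0.46 in the longest (6089 to 73074 bases), where 63.3% were called lower. The same medians were 0.46 and -0.44 in SS against SS+NAC, and -0.02 and -0.01 in SS+NAC against control. HSPB1, at 882 bases, and HSPE1, at 935 bases, lay in the shortest eighth, and the other 8 members lay between 2281 bases (HSPA8) and 3395 bases (HSP90AA1).

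Each comparison was therefore also fitted with an offset that removes the trend of each library with length. The shares of all tested genes called were then 9.23% in SS against control, 14.4% in SS against SS+NAC and 2.01% in SS+NAC against control. In SS against control HSPA1A, HSPA1B and HSPH1 were still called and HSPB1, HSPE1 and HSP90AA1 were not. In SS against SS+NAC HSPA8 and HSPH1 were still called and HSPB1, HSPE1 and DNAJB1 were not, and in SS+NAC against control HSPA1B remained. A term for the replicate number (replicate block) was also added beside the offset. HSPA8 and HSPH1 were then not called in SS against SS+NAC (adjusted p = 0.074 and 0.0806). What made the fold changes follow length was not tested.

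**Figure D2:**
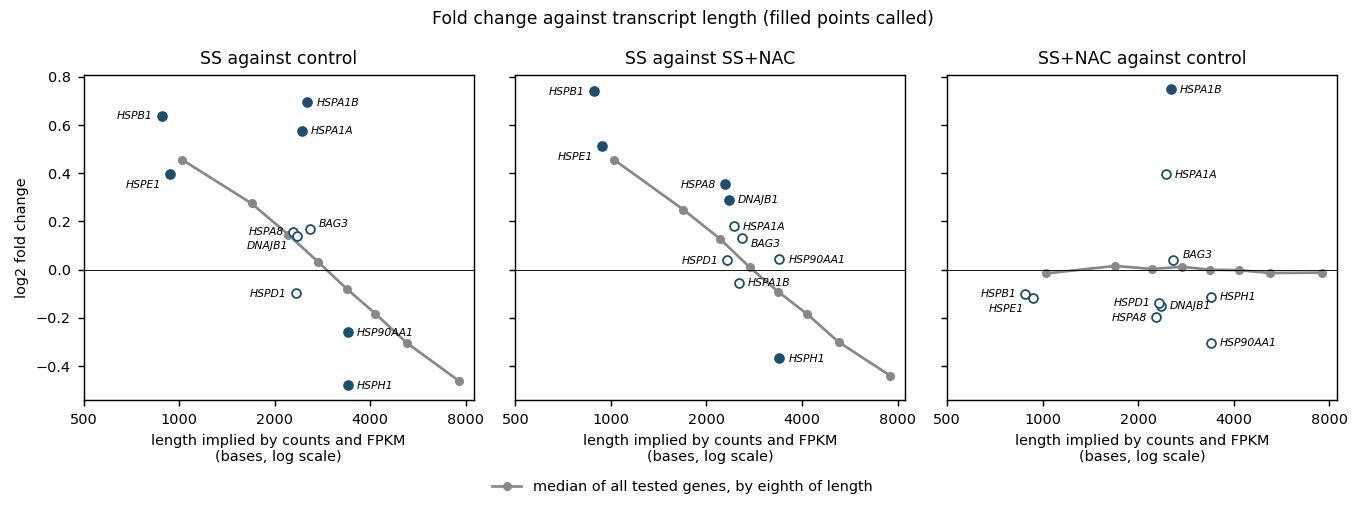
Log2 fold change of the 10 genes (points, filled where called) against length in bases on a log axis, with the median of all tested genes in each eighth of length (grey line), 1 panel a comparison. HSPE1 lies near the grey line in SS against control and SS against SS+NAC, whereas HSPA1A, HSPA1B and HSPH1 lie away from it in SS against control.

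The inducible HSP70 genes stand close together on chromosome 6 and encode nearly the same protein. In GENCODE 29 (GRCh38) HSPA1A spans chr6:31815464-31817946 and HSPA1B chr6:31827735-31830255, both on the plus strand. All 10 members had an entry in the RefSeq promoter table (GRCh38.p14), which gives 250 bases before and 50 after each start site, and some had several start sites, 14 windows in all. The 250 bases upstream of HSPA1A and HSPA1B were 93.6% identical in alignment. The windows were searched on both strands for the heat shock element as GAANNTTC or TTCNNGAA (2 units), and as GAANNTTCNNGAA or TTCNNGAANNTTC (3 units, which contain the 2-unit forms). The 2-unit form was found in 13.5% of all 35116 promoter windows of the table and the 3-unit form in 0.49%. Of the 14 windows of the members, 8 held the 2-unit form and 3 the 3-unit form. By gene, with some genes having several windows, these were 7 and 3 of the 10 members. The stretches around the match of each of the inducible pair are shown because these were the members higher than control with length taken into account, from chr6:31815422-31815459 for HSPA1A and chr6:31827618-31827655 for HSPA1B, both on the plus strand, with the element in capitals.
HSPA1A: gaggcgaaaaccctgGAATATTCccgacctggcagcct
HSPA1B: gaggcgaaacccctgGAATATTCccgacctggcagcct
The element began at base -106 from the start site in HSPA1A and at base -105 in HSPA1B, with the same 8 letters. A match describes the letters of the window and says nothing of whether a factor was bound there.

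HSPA1A had 263 and 252 CPM (counts scaled to a common library size with TMM factors) in the control libraries 1 and 2, 397 and 371 in SS, and 380.0 and 298 in SS+NAC. Both SS libraries and both SS+NAC libraries lay above both controls, and the SS+NAC libraries were far apart, 1 within the range of SS and 1 below it. The log2 fold change was 0.58 ± 0.11 (SE, 2 libraries a group, adjusted p = 0.00213) in SS against control and 0.49 with the length offset (adjusted p = 0.0165). HSPA1A was not called in SS against SS+NAC (0.18, 95% interval -0.06 to 0.42) or in SS+NAC against control (0.40, interval 0.16 to 0.63, adjusted p = 0.102). Both depended on which SS+NAC library was kept. The first became 0.37 and was called without SS+NAC 1, but was 0.01 without SS+NAC 2. The second became 0.56 and was called without SS+NAC 2, but was 0.21 without SS+NAC 1. DESeq2 called the second at 0.38 (adjusted p = 0.0235).

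HSPA1B had 115 and 118 CPM in control, 199 and 178 in SS, and 204 and 187 in SS+NAC. The 4 libraries given selenite overlapped one another and all stood above both controls. Its log2 fold change was 0.69 ± 0.08 (SE, adjusted p = 0.000264) in SS against control and 0.75 ± 0.08 (SE, adjusted p = 0.000984) in SS+NAC against control. With the length offset the values were 0.63 and 0.73, both called. In SS against SS+NAC it was -0.05 with an interval from -0.23 to 0.13, and the sign of this small difference turned when SS 2 or SS+NAC 1 was left out.

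The split of reads between HSPA1A and HSPA1B is uncertain. Of all 50-base words in the HSPA1A transcripts of GENCODE 29, 71.3% also occurred in HSPA1B, so that reads of this length from those stretches have to be divided by estimation. Summed, the pair had 378 and 370 CPM in control, 596 and 549 in SS, and 584 and 485 in SS+NAC. The sum does not depend on that division, and both treated groups stood above both controls. Its log2 fold change was 0.61 (95% interval 0.40 to 0.83, adjusted p = 0.000911) in SS against control, 0.52 (interval 0.30 to 0.73, adjusted p = 0.023) in SS+NAC against control and 0.10 (interval -0.11 to 0.31) in SS against SS+NAC. HSPA1B made up 30.4% and 31.8% of the summed counts in control, 33.4% and 32.4% in SS and 34.9% and 38.6% in SS+NAC, so its share was lowest in the controls. AL671762.1 overlaps HSPA1B on the same strand over 1422 bases, a further uncertainty in its count.

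HSPA8 encodes the constitutive HSP70 of the cytosol, which is abundant without stress and also drives clathrin uncoating and chaperone-mediated autophagy. Its promoter window (start site 123062136 on chromosome 11, minus strand) held 4 matches to the 2-unit form, which made up 2 elements of 3 units. The stretch chr11:123062164-123062381 on the minus strand is shown because it holds both, in capitals, at bases -230 and -55 from the start site.
HSPA8: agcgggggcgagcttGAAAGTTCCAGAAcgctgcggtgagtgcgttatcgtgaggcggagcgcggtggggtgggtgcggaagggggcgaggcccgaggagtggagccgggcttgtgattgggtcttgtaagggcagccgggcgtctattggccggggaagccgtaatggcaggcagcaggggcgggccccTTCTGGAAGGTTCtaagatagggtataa
HSPA8 stood at 3053 and 2953 CPM in control, 3301 and 3397 in SS, and 2702 and 2537 in SS+NAC. By CPM the groups did not overlap, with SS highest and SS+NAC lowest. The difference was called between these ends, at 0.35 ± 0.08 on the log2 scale in SS against SS+NAC (SE, adjusted p = 0.00621), and with the length offset at 0.25 (adjusted p = 0.0236). It was not called with a replicate block beside the offset (0.25, adjusted p = 0.074). Against control HSPA8 was not called either in SS (0.16, 95% interval -0.03 to 0.34) or in SS+NAC (-0.20, interval -0.38 to -0.01, adjusted p = 0.277). Its count carries some uncertainty, as 10.6% of its 50-base words also occur in other genes, most of all in the pseudogene HSPA8P1.

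The balance of constitutive to inducible HSP70 was followed as the ratio of HSPA8 to HSPA1A plus HSPA1B in FPKM, 3 transcripts of similar length. It was 8.71 and 8.61 in control, 6.02 and 6.76 in SS, and 5.01 and 5.65 in SS+NAC. The ratio was thus highest in the controls and lowest in SS+NAC, with no overlap between groups. No model was fitted to the ratio, and a two-sided exact permutation test of 2 libraries against 2 gives no p below 0.333.

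The 2 nucleotide exchange factors did not move alike. HSPH1 encodes HSP110, a relative of HSP70 that exchanges its nucleotide and takes part in dissolving aggregates. It had 248 and 228 CPM in control, 168 and 173 in SS, and 211 and 229.9 in SS+NAC. The SS libraries were the lowest, and those of SS+NAC overlapped control. Its log2 fold change was -0.48 ± 0.08 (SE, adjusted p = 0.0012) in SS against control and -0.37 ± 0.08 (SE, adjusted p = 0.00424) in SS against SS+NAC. Both were called with the length offset, at -0.39 and -0.27. The second was not called with a replicate block beside the offset (-0.27, adjusted p = 0.0806). In SS+NAC against control the value was -0.11 (95% interval -0.29 to 0.06). HSPH1 shared no 50-base word with another gene.

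BAG3, a nucleotide exchange factor that links HSP70 to selective autophagy and to small heat shock proteins, had 97.3 and 99.0 CPM in control, 107 and 114 in SS, and 108 and 93.7 in SS+NAC. By CPM the SS libraries lay above control and the SS+NAC libraries lay on either side of it. By TPM both SS libraries, at 70.5 and 68.3, lay below both controls, at 75.0 and 74.7. BAG3 was not called in any comparison, with log2 fold changes of 0.17 (95% interval -0.02 to 0.36) in SS against control, 0.13 (-0.05 to 0.32) in SS against SS+NAC and 0.04 (-0.15 to 0.23) in SS+NAC against control. Without SS+NAC 1 the difference between SS and SS+NAC was 0.24 and was called. It was 0.03 without SS+NAC 2 and 0.08 without SS 2, and was not called in these. No window of HSPH1, BAG3 or HSPE1 held the 2-unit form.

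DNAJB1 encodes HSP40, the J-domain protein that stimulates the ATPase of HSP70 and restrains HSF1 activity as the stress response ends. The window of its start site at 14518397 on chromosome 19 held 2 elements of 2 units, at bases -77 and -47, and chr19:14518422-14518489 on the minus strand is shown because both stood in it, in capitals.
DNAJB1: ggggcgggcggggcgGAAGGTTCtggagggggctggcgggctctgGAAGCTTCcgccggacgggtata
DNAJB1 had 141 and 147 CPM in control, 154 and 163 in SS, and 135 and 124 in SS+NAC, an order of groups by CPM like that of HSPA8 and again without overlap. Its log2 fold change was 0.29 ± 0.08 in SS against SS+NAC (SE, adjusted p = 0.0113), which became 0.20 with the length offset (adjusted p = 0.0749), 0.25 without SS 2 (adjusted p = 0.0898) and 0.23 without SS+NAC 2 (adjusted p = 0.0518). The difference from control was not called in SS (0.14, 95% interval -0.03 to 0.31) or SS+NAC (-0.15, interval -0.32 to 0.02). With the length offset SS against control was 0.04 (adjusted p = 0.79). In TPM DNAJB1 had 117 and 121 in control, 113 and 108 in SS, and 112 in both SS+NAC libraries. There SS lay below both controls and overlapped SS+NAC, while FPKM kept the CPM order. TECR overlaps DNAJB1 on the opposite strand over 12686 bases, and reads of the 2 genes may be mixed where strand was not used, which the sources used here do not state.

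HSP90AA1 encodes the stress-responsive HSP90 isoform of the cytosol. The window of its start site at 102087044 on chromosome 14 held an element of 3 units at base -88 and another of 2 at base -68, and chr14:102087090-102087147 on the minus strand is shown with both in capitals.
HSP90AA1: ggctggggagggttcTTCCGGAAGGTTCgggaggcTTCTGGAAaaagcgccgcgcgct
HSP90AA1 had 2347 and 2080 CPM in control, 1753 and 1947 in SS, and 1771 and 1818 in SS+NAC. Both treated groups lay below both controls and overlapped each other. The fall in SS was close to the threshold, with a log2 fold change of -0.26 ± 0.09 (SE, adjusted p = 0.0459). It was -0.17 with the length offset (adjusted p = 0.216), and the call was lost without control 1 (-0.17, adjusted p = 0.386), control 2 (-0.32, adjusted p = 0.0965), SS 1 (-0.19, adjusted p = 0.222) or SS 2 (-0.34, adjusted p = 0.0513). It was also lost with DESeq2 size factors (adjusted p = 0.0583) and with a filter of 10 counts in every library (adjusted p = 0.0682). In SS+NAC against control the value was -0.30 (95% interval -0.51 to -0.10, adjusted p = 0.146, or 0.0148 by DESeq2), and in SS against SS+NAC 0.04 (interval -0.16 to 0.25). The constitutive isoform HSP90AB1, named under the lists below, had 2358 and 2515 CPM in control, 2978 and 3249 in SS, and 2538 and 2268 in SS+NAC, with SS highest and SS+NAC overlapping control. Of the 50-base words of HSP90AA1, 14.9% also occur in other genes, most of all in the pseudogene HSP90AA2P, and WDR20 overlaps it on the opposite strand over 197 bases, so that its count is uncertain to that extent.

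HSPB1 encodes HSP27, a small heat shock protein that binds unfolded proteins and actin. A single 2-unit element began at base -182 from its start site, within chr7:76302476-76302513 on the plus strand, shown with the element in capitals.
HSPB1: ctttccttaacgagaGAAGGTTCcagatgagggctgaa
HSPB1 had 401 and 409 CPM in control, 555 and 706 in SS, and 412 and 343 in SS+NAC. The SS libraries stood above all others, and SS+NAC overlapped control. Its log2 fold change was 0.64 ± 0.12 (SE, adjusted p = 0.00215) in SS against control and 0.74 ± 0.12 (SE, adjusted p = 0.000983) in SS against SS+NAC. At 882 bases it is among the short transcripts that moved this way as a group. With the length offset the values were 0.17 (95% interval from -0.02 to 0.36, adjusted p = 0.245) and 0.26 (adjusted p = 0.0692). In SS+NAC against control the difference was -0.10 (interval -0.36 to 0.16). The pseudogene HSPB1P1 holds 9.7% of its 50-base words.

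HSPD1 and HSPE1 encode HSP60 and HSP10, the chaperonin and its lid in the mitochondrial matrix, and are transcribed away from each other on chromosome 2. Their RefSeq start sites were 105 bases apart, and their promoter windows shared 204 bases. A second start site of HSPD1, at 197499840, had a window with 2 overlapping elements of 3 units. The stretch chr2:197500053-197500090 on the minus strand is shown because it holds them as 1 run, in capitals, and in GENCODE 29 it lies within the bounds of both genes.
HSPD1: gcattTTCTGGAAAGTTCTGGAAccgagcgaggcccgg
HSPE1 had 164 and 171 CPM in control, 206 and 236 in SS, and 166 and 144 in SS+NAC. The SS libraries were the highest and the other groups overlapped. The log2 fold change was 0.40 ± 0.09 (SE, adjusted p = 0.00697) in SS against control and 0.51 ± 0.09 (SE, adjusted p = 0.00175) in SS against SS+NAC. Fitted with the offset it was -0.05 (adjusted p = 0.699) and 0.06 (adjusted p = 0.617), so that neither the call nor, against control, the direction held. Against control the call was also lost without control 1 (0.37, adjusted p = 0.0695) or SS 2 (0.29, adjusted p = 0.0771).

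HSPD1 had 842 and 808 CPM in control, 764 and 778 in SS, and 749 and 751 in SS+NAC. The controls were the highest by a small margin. HSPD1 was not called, with log2 fold changes of -0.10 (95% interval -0.26 to 0.07) in SS against control, 0.04 (-0.13 to 0.20) in SS against SS+NAC and -0.14 (-0.30 to 0.03) in SS+NAC against control. With the length offset it was still not called, at -0.21 (-0.34 to -0.07, adjusted p = 0.064) in SS against control and -0.05 (-0.19 to 0.08) in SS against SS+NAC. The ratio of HSPD1 to HSPE1 in FPKM was 2.05 and 1.89 in control, 1.49 and 1.32 in SS, and 1.81 and 2.10 in SS+NAC. It was lowest in SS, and the 2 transcripts differ in length, 2329 against 935 bases, along which the whole table moved in SS. HSPE1 overlaps the read-through gene HSPE1-MOB4 on the same strand, which had 129 expected counts or fewer in each library, and lies within the bounds of HSPD1 on the opposite strand. Both counts are uncertain in part, as 22.8% of the 50-base words of HSPE1 and 17.8% of those of HSPD1 also occur in other genes, most of all in HSPE1-MOB4 and the pseudogene HSPD1P1.

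**Figure D3:**
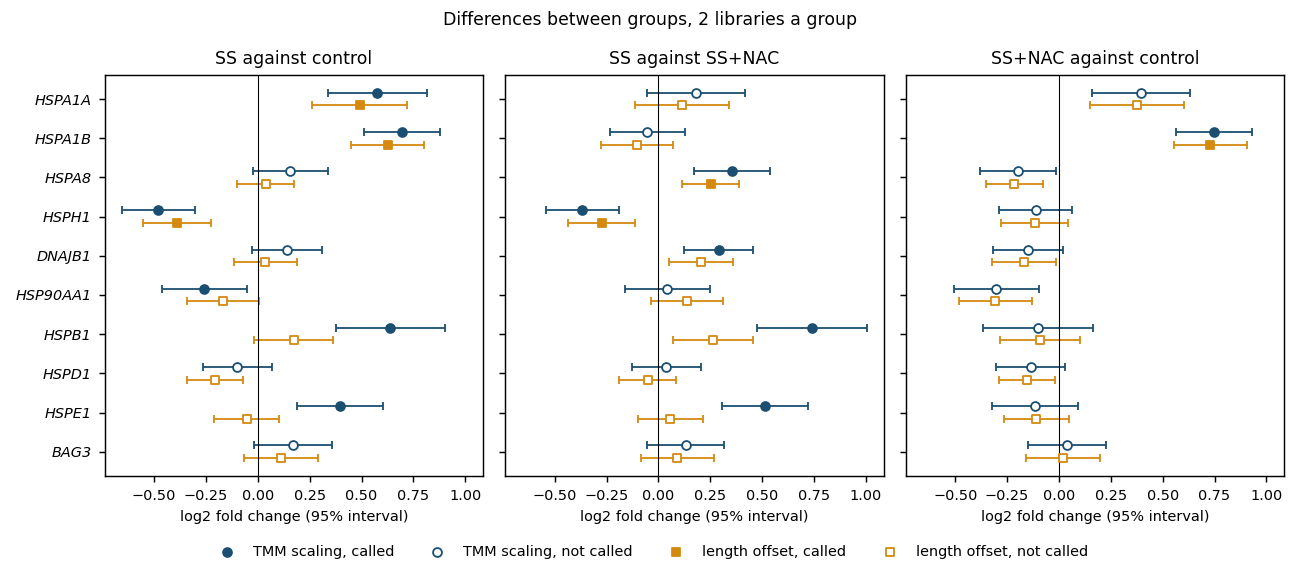
Log2 fold changes with 95% intervals for the 10 genes in the 3 comparisons, with TMM scaling (circles) and with the length offset (squares), filled where called. The squares of HSPB1 and HSPE1 lie far to the left of their circles in both comparisons with SS, at 0.17 and -0.05 in SS against control, whereas those of HSPA1B stay to the right at 0.63.

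By level per length the members kept nearly the same order in every group. In control HSPA8 led at 1329 ± 45.5 FPKM (SD, n = 2), followed by HSP90AA1 at 661 ± 63.7, HSPB1 at 465 ± 1.38, HSPD1 at 359 ± 14.1 and HSPE1 at 182 ± 3.38 FPKM. HSPA1A at 107 ± 4.34, HSPH1 at 72 ± 5.54, DNAJB1 at 61.2 ± 1.63, HSPA1B at 46.6 ± 0.262 and BAG3 at 38.5 ± 0.0354 FPKM came after them. No neighbours in this order overlapped in control, where HSPA8 ranked 60th of all genes by mean FPKM and BAG3 ranked 2174th. In SS HSPB1 at 674 ± 85.3 FPKM stood above HSP90AA1 at 515 ± 16.1, and HSPA1B at 70.5 ± 8.68 overlapped DNAJB1 at 64.3 ± 0.438, above HSPH1 at 46.2 ± 0.863. In SS+NAC HSPA1B at 80.5 ± 2.29 FPKM stood above HSPH1 at 68.2 ± 5.99 and DNAJB1 at 57.2 ± 0.948. HSPA1B was 9th in control and 7th in both treated groups. Together the 10 members made up 0.665% and 0.627% of all FPKM in control, 0.604% and 0.596% in SS and 0.608% and 0.607% in SS+NAC, so the controls had the highest shares. In SS the share was lower although the members' own sum was not, at 3457 and 3530 FPKM beside 3409 and 3230 in control, as all FPKM summed to 572635 and 592277 in SS and to 512438 and 515237 in control. In SS+NAC the members summed to 3130.0 and 3050.0 of 514754 and 502654 FPKM.

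**Figure D4:**
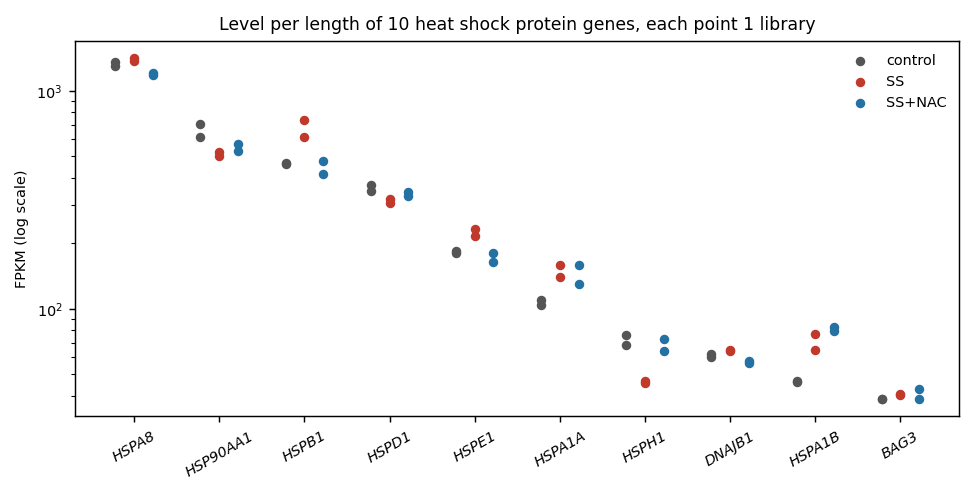
Level per length (FPKM, log axis) of the 10 genes in the order of their control means, 1 point a library, coloured by group. HSPA8 is highest in all groups at 1180.0 FPKM or more, and the points of HSPA1B in control, at 46.4 and 46.7, lie below those of both treated groups.

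Genes whose scaled counts ran most like each member over the 6 libraries were sought among 9526 genes whose mean reached 10 CPM. They were C7orf43 and MIOX for HSPA1A (Pearson r of 0.9927 and 0.9865), and OSCAR and TRAF3IP2 for HSPA1B (0.9895 and 0.9843). For HSPA8 they were RPS19BP1 and NARF (0.994 and 0.9933), for HSPH1 CAST and MTMR6 (0.9995 and 0.9991), for DNAJB1 ILK and PRKAR1B (0.9983 and 0.9965), and for BAG3 SCAMP4 and TTI2 (0.9914 and 0.9895). HSP90AA1 was followed by ANAPC4 and CTBP2 (0.9775 and 0.9714) and HSPD1 by CTNNAL1 and PBX3 (0.9817 and 0.9734). HSPB1 was followed by NDUFA3 (0.9991) and HSPE1 by NDUFS6 and ATP6V0D1 (0.9998 and 0.9994). These values describe 6 libraries in 3 groups and were among the highest of 9526 candidates each. No member was among the genes named here as most like another member.

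The wider chaperone network was described through 109 further genes in 10 lists, of which 104 were tested and some stood in several lists. In SS against control 42 of the 104 rose and 12 fell, with a median log2 fold change of 0.17, beside 18.6% and 21.4% of all tested genes and a median of 0.00. Under the offset 13 were called higher and 7 lower and the median was 0.06, beside 587 higher and 705 lower of all 14005 genes and a median of 0.01. The 54 calls became 25 without control 1, 33 without control 2 and 24 without SS 2. By list the share called ran from 22.2% (regulators of HSP70) to 75.0% (small heat shock proteins), beside 40.0% of all tested genes. It was 33.3% for HSP90 co-chaperones, 37.5% for mitochondrial chaperones and proteases and 64.3% for TRiC and prefoldin. The lists are short, and their counts were not read as a property of the lists. In SS against SS+NAC 45 lay higher and 12 lower among 57 called, with a median of 0.18, beside 19.6% higher and 23.1% lower of all tested genes and a median of -0.03, and 34 were called without SS 2. With the offset 13 were called higher and 7 lower, with a median of 0.09, beside 984 higher and 1035 lower of all genes and a median of 0.01. In SS+NAC against control 1 of the 104 was called, where 2.01% of all tested genes were, so the count lay near the background. It was DNAJB4, a J-domain protein of the DNAJB1 type named here after its values were seen. It had 14.8 and 13.7 CPM in control, 12 and 12.1 in SS, and 19.4 and 27.0 in SS+NAC, the highest group, with a log2 fold change of 0.71 (adjusted p = 0.0365). Among the settings leaving out 1 library, that call was kept only without SS+NAC 1, at 0.92. The others gave 0.45 to 0.76 and no call. In SS against SS+NAC DNAJB4 was called at -0.94 (adjusted p = 0.000809), and with the length offset at -0.90 (adjusted p = 0.00438). Leaving out 1 library at a time gave -1.16 to -0.69 in that comparison.

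Among 10 other genes of the HSP70 and HSP110 family, 2 were called higher in SS against control, 3 lower and 5 not. HSPA6, a strictly inducible HSP70 gene, had 0.611 and 0.724 CPM in control, 1.92 and 1.33 in SS, and 1.33 and 0.789 in SS+NAC. These are low counts, and its log2 fold change of 1.27 ± 0.37 (SE, adjusted p = 0.0203) became 1.17 with the length offset and was not called (adjusted p = 0.0839), nor was it without control 1, control 2 or SS 1 (adjusted p = 0.106, 0.0596 and 0.142). HSPA2, best known from the testis, rose by 1.0 ± 0.25 (SE, adjusted p = 0.00863), from 1.28 and 1.13 CPM in control to 2.31 and 2.51 in SS, and was called at 0.99 with the offset but not without control 2 or SS 2 (adjusted p = 0.0648 and 0.0557). HSPA4L, an HSP110 relative of HSPH1, fell by 0.73 ± 0.10 (SE, adjusted p = 0.00054), from 19.8 and 19.9 CPM to 11.7 and 12.2, and HSPA13, a microsomal HSP70 relative, fell by 0.50 ± 0.11 (SE, adjusted p = 0.00408). Fitted with the offset, HSPA4L was called at -0.56 and HSPA13 was not called at -0.33 (adjusted p = 0.0744). HSPA4L and HSPH1 were thus both lower in SS than in control with length taken into account. HSPA4, named here outside the rule, was also called lower, at -0.24, but not with the offset at -0.14 (adjusted p = 0.19). The mitochondrial HSPA9, named here outside the rule, was at 575 and 607 CPM in control and 595 and 626 in SS, with a log2 fold change of 0.05 (95% interval -0.14 to 0.23).

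Of the 2 other HSP90 genes, HSP90AB1 rose by 0.35 ± 0.09 on the log2 scale in SS (SE, adjusted p = 0.0118) and by 0.30 with the length offset (adjusted p = 0.035), and it was not called without control 1 or SS 2 (adjusted p = 0.145 and 0.0852). The mitochondrial TRAP1, named outside the rule, was not called (0.23, 95% interval 0.02 to 0.44, adjusted p = 0.0753). HSP90AB1 and HSP90AA1 were both called in SS against control and in opposite directions, with lengths of 2621 and 3395 bases, though HSP90AA1 not with the length offset. Among 15 HSP90 co-chaperones, 4 were called higher and 1 lower. AARSD1 and NUDC rose by 0.41 and 0.34, which became 0.07 and 0.06 with the length offset and were not called. Without control 1 or SS 2 neither was called (adjusted p from 0.0735 to 0.289), nor was NUDC without control 2 (adjusted p = 0.065). CHORDC1, a zinc-binding HSP90 partner, fell by 0.36 and was called with the offset at -0.31 (adjusted p = 0.0435) but not without control 1 (adjusted p = 0.0888). With the offset FKBP4 and PPID, named after their values were seen, were called at 0.29 and -0.29, where they had not been at 0.18 and -0.07. Without the offset FKBP4 was also called with a filter of 10 counts in every library (0.21, adjusted p = 0.041). The same held with only the compared libraries (0.17, adjusted p = 0.046).

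The 27 further J-domain genes were split in SS against control, with 7 called higher, 7 called lower and a median of 0.02. The largest falls were those of DNAJB14, a J-domain protein of the endoplasmic reticulum membrane, at -0.87 ± 0.13 (SE, adjusted p = 0.000797), and DNAJC13, an endosomal protein, at -0.79 ± 0.08 (SE, adjusted p = 0.000122). Both are long, at 5837 and 6822 bases, and were called with the length offset at -0.52 and -0.37. The largest rises were those of DNAJC30 at 0.51 ± 0.14 (SE, adjusted p = 0.0181) and DNAJC17 at 0.47 ± 0.11 (SE, adjusted p = 0.00735), of which DNAJC30 stayed at 0.44 with the offset (adjusted p = 0.0882) while DNAJC17 came to 0.05 (adjusted p = 0.797). Neither was called with it or without control 1 or SS 2 (adjusted p from 0.0561 to 0.093), nor was DNAJC30 without SS 1 (adjusted p = 0.0539). Named after their values were seen, DNAJC15 and DNAJB12 were called higher with the offset, at 0.41 and 0.26, and DNAJC2 and DNAJC24 lower, at -0.63 and -0.40. Of these DNAJB12 was not called in the same fit without the offset (0.17). It was called without the offset under a filter of 10 counts in every library (0.20, adjusted p = 0.0345). In fits without the offset DNAJC2 was not called without control 1 or SS 1 (-0.38 and -0.30). DNAJC24 was not called there without control 1 or SS 2 (-0.26 and -0.28) or by DESeq2 (adjusted p = 0.0603). Of 9 regulators of HSP70 2 were called, both higher: HSPBP1, an exchange factor, at 0.36, and STUB1, the ubiquitin ligase CHIP, at 0.32. These were 0.10 and 0.04 with the offset and not called, and neither was called without control 1 or SS 2 (adjusted p from 0.168 to 0.331), nor HSPBP1 without control 2 (adjusted p = 0.0607). With the offset 2 others were called higher, BAG1 at 0.33 and ST13 at 0.25, which were not called before it at 0.17 and 0.12 and were named after their values were seen.

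Of 9 other small heat shock protein genes 4 were tested and 3 were called higher. CRYAB, alpha-B crystallin, had 4.28 and 4.25 CPM in control, 7.19 and 7.08 in SS, and 5.96 and 5.48 in SS+NAC, the SS libraries being the highest. Its log2 fold change was 0.74 ± 0.14 (SE, adjusted p = 0.00268) in SS against control and 0.30 with the length offset (adjusted p = 0.225), at a length of 952 bases. HSPB11, now known as a part of the intraflagellar transport machinery, rose by 0.44, and with the offset its value was -0.07. At 681 bases HSPB11, like CRYAB, sat with HSPB1 and HSPE1 in the shortest eighth of transcripts.

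Of 16 mitochondrial chaperones and proteases 5 were called higher and 1 lower. DNLZ, a zinc finger partner of mitochondrial HSP70, rose by 0.59 and HSCB, a J-domain protein of iron-sulfur cluster assembly, by 0.49, and YME1L1, an inner membrane protease, fell by 0.32. The offset gave 0.08, 0.06 and -0.11, and none of the 3 was called. It called 3 others higher, named after their values were seen, and the median of the list was 0.07: GRPEL1 at 0.29 and HTRA2 at 0.36, which were called before it at 0.30 and 0.42, and GRPEL2 at 0.36, which was not at 0.17. Without the offset GRPEL1 lost its call when control 1, control 2 or SS 2 was left out (adjusted p = 0.0764, 0.0644 and 0.0907) and HTRA2 when SS 2 was (adjusted p = 0.0634). DNLZ was also not called without SS 2 (adjusted p = 0.0685), HSCB without control 2 (adjusted p = 0.078) or YME1L1 without control 1 or control 2 (adjusted p = 0.0664 and 0.0633). Of 14 genes of TRiC and prefoldin, the complexes that fold actin and tubulin, 9 were called higher and 5 not, with a median of 0.26. PFDN6 and PFDN5 led at 0.66 ± 0.08 and 0.64 ± 0.07 (SE, adjusted p = 0.000342 and 0.000231), and at 585 and 654 bases both were short. With the offset they were 0.11 and 0.11, the median of the list was 0.04 and 1 of the 14 was called, CCT5 at 0.35, named after its values were seen. Without the offset CCT5 was called at 0.25, but not when control 1, control 2 or SS 2 was left out (adjusted p = 0.198, 0.121 and 0.157).

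The heat shock factors and their regulator were 4 further genes. HSF1, the main inducer of the members, had 181 and 190.0 CPM in control, 196 and 222 in SS, and 189 and 159 in SS+NAC. Its SS libraries lay highest, but SS against control was not called, at 0.17 (95% interval -0.05 to 0.38, adjusted p = 0.197), and with the length offset the value was -0.01. In SS against SS+NAC it was called at the threshold, at 0.26 (adjusted p = 0.0493), and not with the offset at 0.10 (adjusted p = 0.44) or without control 1, SS 2 or SS+NAC 2 (adjusted p = 0.0831, 0.321 and 0.268), nor with no filter on low counts or with only the compared libraries (adjusted p = 0.0741 and 0.0529). HSF2 was not called at 0.06 (interval -0.21 to 0.33). HSF4, at 3.39 CPM in both controls and 4.58 and 4.98 in SS, was called at 0.49 (adjusted p = 0.0405), and stayed at 0.43 with the length offset without a call (adjusted p = 0.142), nor was it called when any library of either group was left out (adjusted p from 0.071 to 0.174). HSBP1, which binds the trimer of HSF1, rose by 0.39 ± 0.07 (SE, adjusted p = 0.00207) and was 0.21 with the offset (adjusted p = 0.069). These are transcript levels, and the activity of HSF1 was not measured.

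Among 21 other targets of HSF1, 11 were called higher in SS against control, 3 lower and 7 not, with a median of 0.30. Of all tested genes 18.6% were called higher and 21.4% lower, with a median of 0.00. The median length was 2352 bases for the list and 3047 for all tested genes. Of the 21, 4 were called higher and 3 lower under the offset, with a median of 0.10. Of all 14005 genes 587 were then called higher and 705 lower. In SS against SS+NAC 10 were called higher and 2 lower, with a median of 0.31, which became 5 higher, 3 lower and 0.08 under the offset. Of all tested genes 19.6% were called higher and 23.1% lower there, or 984 and 1035 genes under the offset. In SS+NAC against control 1 of the 21 was called and the median was -0.02, beside 2.01% of all tested genes called. Under the offset 1 was called higher, 1 lower and the median was -0.04. The lower gene was CHORDC1, at -0.39 (adjusted p = 0.0397) with the offset. Without it the value was -0.38, just short of a call (adjusted p = 0.0513), and it was called with DESeq2 size factors (adjusted p = 0.0395). Leaving out SS+NAC 1 or SS+NAC 2 gave a call (-0.34 and -0.42). Leaving out control 1, control 2, SS 1 or SS 2 gave none (-0.32, -0.45, -0.38 and -0.38). HSPA6 and CRYAB had the largest rises among those called in SS, and HSPA4L and CHORDC1 the largest falls, with the values given above.

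**Figure D5:**
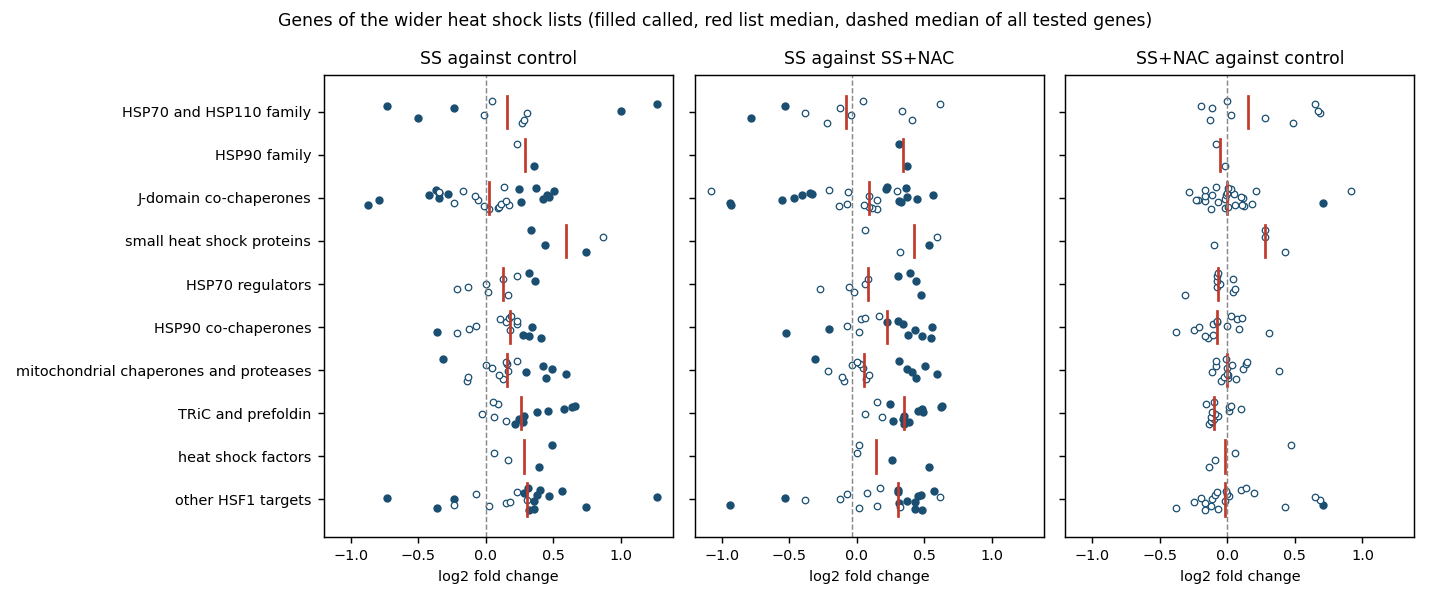
Log2 fold changes of the tested genes of the 10 lists in the 3 comparisons, 1 point a gene (filled where called), with the median of each list (red) and of all tested genes (dashed). In SS against control the list medians run from 0.02 (J-domain co-chaperones) to 0.59 (small heat shock proteins), before the length offset, and in SS+NAC against control the 1 filled gene is DNAJB4, which stands in both the J-domain list and the list of HSF1 targets.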

How the data were processed

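RNA was sequenced by the authors as single-end 50-base reads on a BGIseq500 instrument after selection with oligo(dT) beads. The submitters' processing notes name HISAT2 2.0.4, Bowtie2 2.2.5 and RSEM 1.2.12. The authors deposited expected counts per gene estimated by RSEM, and likewise FPKM and TPM values, in 1 table of the series. The columns of the authors' own comparisons, which hold a log2 fold change with p-values and q-values, and the means by group were deposited in the same table and were not used. Expected counts were rounded to whole numbers, filtered with filterByExpr, scaled by TMM and fitted with edgeR 4.0.16 in R 4.3.3 (quasi-likelihood test, group as the only term, all 6 libraries), with Benjamini-Hochberg adjustment over 14005 genes. The fitting was tested on simulated counts with 200 changed genes. The length offset was a lowess curve (span 0.3) of each library on log length. DESeq2 1.42.0 was an alternative. Intervals are 95% by the fit's degrees of freedom. Named genes are the 10 members, in each list up to 2 called genes with the largest rise and 2 with the largest fall in SS against control at a mean of 1 CPM or more, all heat shock factors, and for each member the 2 genes most like it, except that 1 gene and 1 marker are not reported here. Members and lists were chosen with earlier results of these data known. Promoters came from RefSeq (GRCh38.p14), gene bounds from GENCODE 29.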

Additional observations from a re-analysis of the deposited data

How the results depend on the processing

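Over 30 fold changes of the 10 members in 3 comparisons, 17 other settings gave 507 values, of which 452 kept the direction and the side of the threshold, 34 lost the call, 12 gained it and 9 turned. Under Bonferroni adjustment 0 members were called in SS against control and 0 in SS against SS+NAC, where edgeR had 6 and 5 at an unadjusted p under 0.05 and DESeq2 called 6 and 5, with 4622 and 4866 of all genes. Listed genes outside the members then numbered 1, 0 and 0 in SS against control, SS against SS+NAC and SS+NAC against control, and all genes 220, 191 and 40. With the length offset 3, 2 and 1 members, 20, 20 and 2 listed genes and 1292, 2019 and 282 of all genes were called in the same order. Among the members and the listed genes named in the report, leaving aside other listed genes that also turned, HSPE1 (-0.052), HSF1 (-0.01) and HSPB11 (-0.075) in SS against control and HSPD1 (-0.052), CRYAB (-0.13), DNAJC17 (-0.044), HSCB (-0.064), HSPB11 (-0.013), HSF2 (-0.018) and HSF4 (-0.025) in SS against SS+NAC changed sign, as did DNLZ (0.021) in SS+NAC against control. DNAJC17, HSCB and HSPB11 had been called in SS against SS+NAC at 0.37, 0.37 and 0.54. In SS+NAC against control DESeq2 size factors called 2 listed genes (284 of all genes), a fit of only the compared libraries 0 (14 at an unadjusted p under 0.05 in the fit of all libraries, 1 called by DESeq2) and 206 of all genes, and the DESeq2 Wald test 3 members and 311 of all genes. The numbers 1 and 2 of the libraries are shared labels only, with correlations of deviations of 0.113, -0.105 and -0.175 between equal numbers of control and SS, control and SS+NAC, and SS and SS+NAC. With a replicate block 5, 5 and 1 members were called and 4857, 5136 and 211 genes. A replicate block with length offset left 3, 0 and 1 members (4 at an unadjusted p under 0.05 in SS against SS+NAC), 8, 13 and 1 listed genes and 850, 1349 and 202 genes, with HSPE1 at -0.052, HSF1 at -0.01 and HSPB11 at -0.074 in SS against control, and in SS against SS+NAC HSPD1 at -0.052, CRYAB at -0.13, DNAJC17 at -0.043, HSCB at -0.068 and HSPB11 at -0.012. A replicate block crossed for SS+NAC, chosen after seeing the data, called 9, 5 and 4 members, 66, 65 and 10 listed genes and 7151, 7286 and 1475 genes. Leaving out 1 library at a time, where a lone library is assumed to vary like the other groups, called 24 to 57, 34 to 57 and 0 to 8 listed genes, 3118 to 6579, 3250 to 6339 and 98 to 1086 genes, and 1 to 2 members in SS+NAC against control. The same fits gave ranges across 0 for HSF2 in SS against control (-0.011 to 0.154), for HSPA1B (-0.138 to 0.024) and HSP90AA1 (-0.035 to 0.118) in SS against SS+NAC, and for HSPB1 (-0.239 to 0.025) and BAG3 (-0.068 to 0.137) in SS+NAC against control. By CPM in place of FPKM 5 of the 10 members changed rank in control, and by TPM 0 did. Calls lost under Bonferroni adjustment follow from its stricter rule. The cause of the other changes was not tested, and leaving out 1 library lowered some counts and raised others.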

Other observations

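HSF1 transcripts lay at 82.1 to 105 FPKM over the 6 libraries, above those of HSF2 at 4.79 to 6.2 FPKM and HSF4 at 1.33 to 2.05 FPKM. Among HSP90 genes HSP90AB1 lay at 914 to 1154 FPKM, above HSP90AA1 at 504 to 706 FPKM in every library. HSPA6 stayed at 0.79 FPKM or less in each library, also where HSPA1A and HSPA1B were highest.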
